A study of Mus musculus with 12 samples.

Results

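Iron moves through blood progenitors by a small set of transporters and enzymes, and 10 of their genes were followed in stem cells and myeloid progenitors of mice with a mutated PU.1. The genes were Tfrc, Steap3, Slc11a2, Slc25a37, Fth1, Slc40a1, Heph, Slc11a1, Cd163 and Hmox1, which are 10 of the 18193 genes that the array reads with a probe set of 1 gene symbol. A probe set is a group of short oligonucleotides that reads 1 transcript, and 22 of the 45101 probe sets of the array carried 1 of these 10 symbols alone. The genes were chosen by their role in iron handling, with earlier results of these samples known, among them the high level of Heph in mutant stem cells. The Heph difference in stem cells is therefore given as a description with no test. The lead probe set of a gene was selected on its measured mean, as the one brightest over the 12 arrays, and the other probe sets serve as checks.

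Short-term hematopoietic stem cells (ST-HSC) and granulocyte-monocyte progenitors (GMP) were sorted from newborn liver of C57Bl/6 mice that were homozygous knock-in for PU.1 Q202L (KI) or wild-type (WT). Each of the 4 groups has 3 samples, and littermates from heterozygous breeding were used. Every cell of a KI animal carries the exchange, which was chosen to weaken the binding of c-Jun to PU.1, and KI mice do not survive the day of birth. The array cannot read the exchange itself, so the genotypes rest on the labels. In the sample records the ST-HSC gate is lin- Sca-1+ c-kit+ with CD150- and CD48+, and the GMP gate is lin- c-kit+ without Sca-1 and with FcgRII/III and CD34. The methods differ in giving CD48- for ST-HSC, an intermediate CD34 level for the KI population (hence GMP-like), fetal liver and a mixed strain background. How many mice stand behind a sample is not stated, so the spread on which the p-values rest is that of samples and could be technical in origin.

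Cells take up iron bound to transferrin through the transferrin receptor, reduce it in the endosome and pass it into the cytosol, from where it goes to the mitochondria for heme or into ferritin for storage. Ferroportin is the only known exporter of iron from mammalian cells and works with copper oxidases that load the iron onto transferrin. In the fetal liver erythroblasts are the main consumers of iron, and macrophages recover iron from hemoglobin and heme. PU.1 is an Ets factor of myeloid and B cells that binds purine-rich sequences around GGAA.

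Stretches before the start sites are shown for 3 members and for 4 further iron genes that were called, because PU.1 and its partner c-Jun, an AP-1 factor, bind at promoters. They come from RefSeq on GRCm38.p6. Promoter windows matched 5 of the 10 members (Tfrc, Steap3, Fth1, Slc11a1 and Cd163) and these 4 further genes. The 250 bases before each start were searched on both strands for GGAAGT and GAGGAA, which are Ets forms that can overlap each other, for the AP-1 site TGAGTCA and for the GATA site AGATAA. Capitals mark a match, which is written as it reads on the strand of the gene. One match is shown per gene, and Ltf holds an Ets match (GAGGAA) beside the GATA match shown. The matches shown for Tfrc, Slc11a1 and Tfr2 lie before an inner start and after the outermost start of the gene. Cd163 and Blvrb are given by the 100 bases before their outermost start, since none of the 4 motifs was found in their windows, nor in those of Fth1.
Tfrc, chr16:32608892-32608921, plus strand: gtacgtgcggaaGGAAGTgacgtagatcca
Slc11a1, chr1:74375039-74375068, plus strand: gggtatccaggaGAGGAAcgaaggtcaaaa
Hfe, chr13:23710903-23710932, minus strand: cacagcaatccTGACTCAgcagtggctcca
Tfr2, chr5:137570545-137570574, plus strand: tttcatggtgaaACTTCCaagggggctggg
Ltf, chr9:111019248-111019277, plus strand: gtcacccagcacAGATAAagggccccgggg
Cd163, chr6:124304536-124304635, plus strand: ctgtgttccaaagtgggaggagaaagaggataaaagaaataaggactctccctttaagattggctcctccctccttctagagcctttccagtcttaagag
Blvrb, chr7:27447878-27447977, plus strand: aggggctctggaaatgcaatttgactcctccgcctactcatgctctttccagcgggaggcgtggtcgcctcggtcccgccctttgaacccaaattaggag
Of all 32851 promoter windows, GGAAGT was in 19.7%, GAGGAA in 23.3%, TGAGTCA in 4.46% and AGATAA in 9.99%. Steap3 has 4 annotated starts, and GGAAGT lay before each of them. A match is a description of the letters and not a measured site.

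The deposited values are log2 RMA values. The array medians were 5.00 to 5.10 in ST-HSC but 4.70 to 4.79 in GMP, so levels are set side by side across the populations and compared only within one. Replicates correlated at 0.963 to 0.990 over all tested probe sets. Xist, which female cells transcribe from their inactive X chromosome, was high in replicates 1 and 3 of WT ST-HSC and WT GMP (10.67 to 11.74) and low in replicate 2 of both and in all 6 KI arrays (2.98 to 3.78). Xist thus differed between genotypes in 2 of 3 WT samples of each population, and results are also given against the WT samples of low Xist, which are 1 per population. In those comparisons a single WT array stands against 3 KI arrays and is assumed to vary like the other groups, which supply the spread. Of the genes of the sort markers, Slamf1, which encodes CD150, and Fcgr3, which encodes FcgRIII, rose in KI ST-HSC (1.92, adjusted p = 0.00132 and 1.68, adjusted p = 0.00165), and Cd34 fell in KI cells of both populations (−1.41, adjusted p = 0.00103 for ST-HSC and −2.87, adjusted p = 6.98e-06 for GMP). For the same Cd34 probe set in mutant GMP-like cells the paper prints a log2 fold change of 2.87, the opposite sign. A difference is KI minus WT on the log2 scale, from 1 limma fit of the 4 groups. A gene is called where its p, adjusted by Benjamini-Hochberg over all 45037 tested probe sets, is under 0.05.

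Slc40a1, the iron exporter, and Cd163, a scavenger receptor, were higher in KI than in WT ST-HSC, and Heph, an oxidase of iron export, was higher in KI GMP-like cells than in WT GMP. The intervals of the ferritin heavy chain Fth1 lay within −0.43 and 0.28 in both populations. Of the 9 genes other than Heph, 2 rose in KI ST-HSC, Slc40a1 and Cd163, and none fell. Over all 18193 genes 1.33% were called higher and 1.68% lower in KI ST-HSC. In GMP 1 of 10 rose, Heph, and none fell, while 1.19% of all genes were called higher and 1.4% lower. Heph was chosen with its ST-HSC level known, and of the 9 genes other than Heph none was called in GMP. The median difference was 0.33 over the 9 genes in ST-HSC and −0.15 over the 10 genes in GMP, beside −0.02 and −0.03 over all genes. The KI arrays all lay above the WT arrays for 4 of 9 genes in ST-HSC (10.9% of all genes) and all below for 2 (11.2% of all genes). In GMP the KI arrays lay above for 2 of 10 genes (8.26% of all genes) and below for 3 (11.1% of all genes). Without Heph they lay above for 1 of 9 genes and below for 3. For 1 gene alone, the lowest two-sided p of an exact permutation test is 0.1 with groups of 3.

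**Figure D1:**
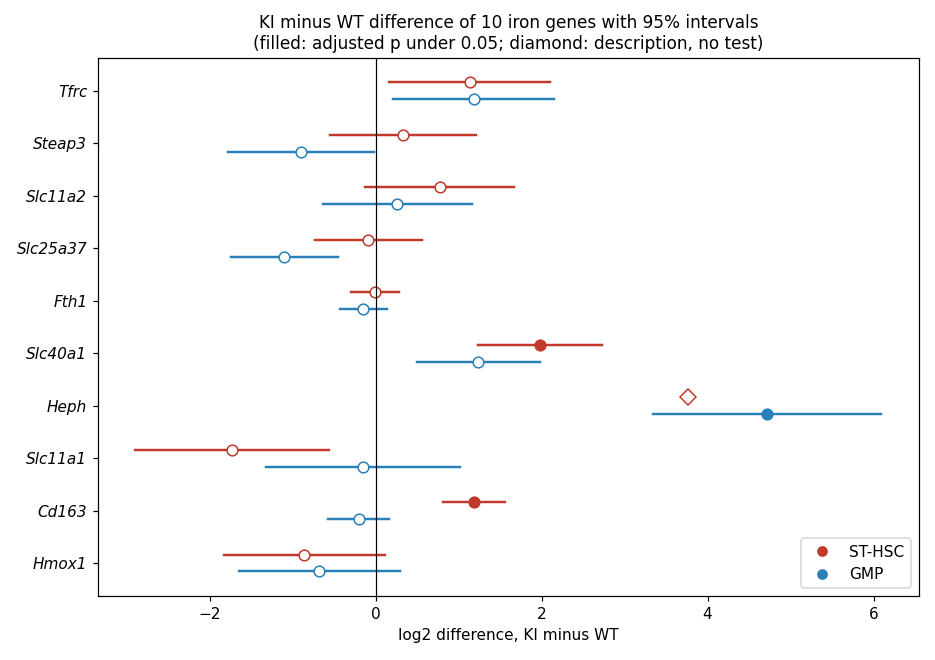
Log2 difference of KI minus WT (horizontal axis) of the lead probe set of each gene in ST-HSC (red) and GMP (blue), with the 95% interval of the limma fit, filled where the adjusted p was under 0.05. The filled points are Slc40a1 and Cd163 in ST-HSC and Heph in GMP, and the diamond marks Heph in ST-HSC, at 3.77, which has no test.

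Heph encodes hephaestin, a membrane-bound copper oxidase that works beside ferroportin, and lies on the X chromosome. In ST-HSC it read 7.35, 6.54 and 6.57 in KI and 3.29, 3.53 and 2.34 in WT. It read 9.67, 8.45 and 8.48 in KI GMP-like cells and 4.52, 5.30 and 2.63 in WT GMP. All KI arrays lay above all WT arrays in both populations, and WT replicate 3 was the lowest array of each WT group. The means in ST-HSC were 6.82 ± 0.46 (SD, n = 3) for KI and 3.05 ± 0.63 (SD, n = 3) for WT, a difference of 3.77. The WT ST-HSC values lay below the lower quartile of their arrays (3.55 to 3.61), as did WT GMP replicate 3 (3.38), so the sizes of these differences rest on WT values near the floor of the array. Heph was higher in KI GMP-like cells than in WT GMP by 4.72 (95% interval 3.34 to 6.09, adjusted p = 0.00379), from 4.15 ± 1.37 (SD, n = 3) to 8.87 ± 0.69 (SD, n = 3). The labels do not say whether ST-HSC and GMP samples of 1 number came from the same mice, so GMP may not be independent of the ST-HSC values that were known. The array reads Heph with 1 probe set, so no second probe set checks it. In the WT samples with low Xist it read 3.53 in ST-HSC and 5.30 in GMP, below every KI array, and against these single arrays the differences were 3.29 in ST-HSC and 3.56 in GMP (adjusted p = 0.0466, with the spread taken from the other groups). A fit restricted to the 6 GMP arrays lost the call (adjusted p = 0.0645). In sorted populations, more cells of a type and more RNA per cell cannot be told apart.

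Slc40a1 encodes ferroportin, the iron exporter. It read 8.18, 8.60 and 8.06 in KI ST-HSC and 6.27, 6.57 and 6.05 in WT ST-HSC. In KI GMP-like cells it read 8.09, 9.21 and 8.87, and in WT GMP 6.91, 8.06 and 7.49. The KI arrays lay above the WT arrays in both populations, in GMP with only a narrow gap between KI replicate 1 and WT replicate 2. The ST-HSC difference of Slc40a1 passed, a rise of 1.98 (standard error 0.34, adjusted p = 0.0117). The difference in GMP was 1.24 (95% interval 0.49 to 1.98) and did not pass (adjusted p = 0.0965). The second probe set gave 1.95 in ST-HSC (adjusted p = 0.0924) and 1.81 in GMP (adjusted p = 0.107), so neither passed although both have the same sign. The call in ST-HSC was lost without KI ST-HSC replicate 2 (adjusted p = 0.0682) or WT ST-HSC replicate 3 (adjusted p = 0.0504), with the Xist level as a covariate (1.55, adjusted p = 0.0709) and without the WT arrays of high Xist (1.71, adjusted p = 0.109). With the replicate number as a block, the GMP difference passed (adjusted p = 0.0313), and it also passed without KI GMP replicate 1 (1.56, adjusted p = 0.0451).

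**Figure D2:**
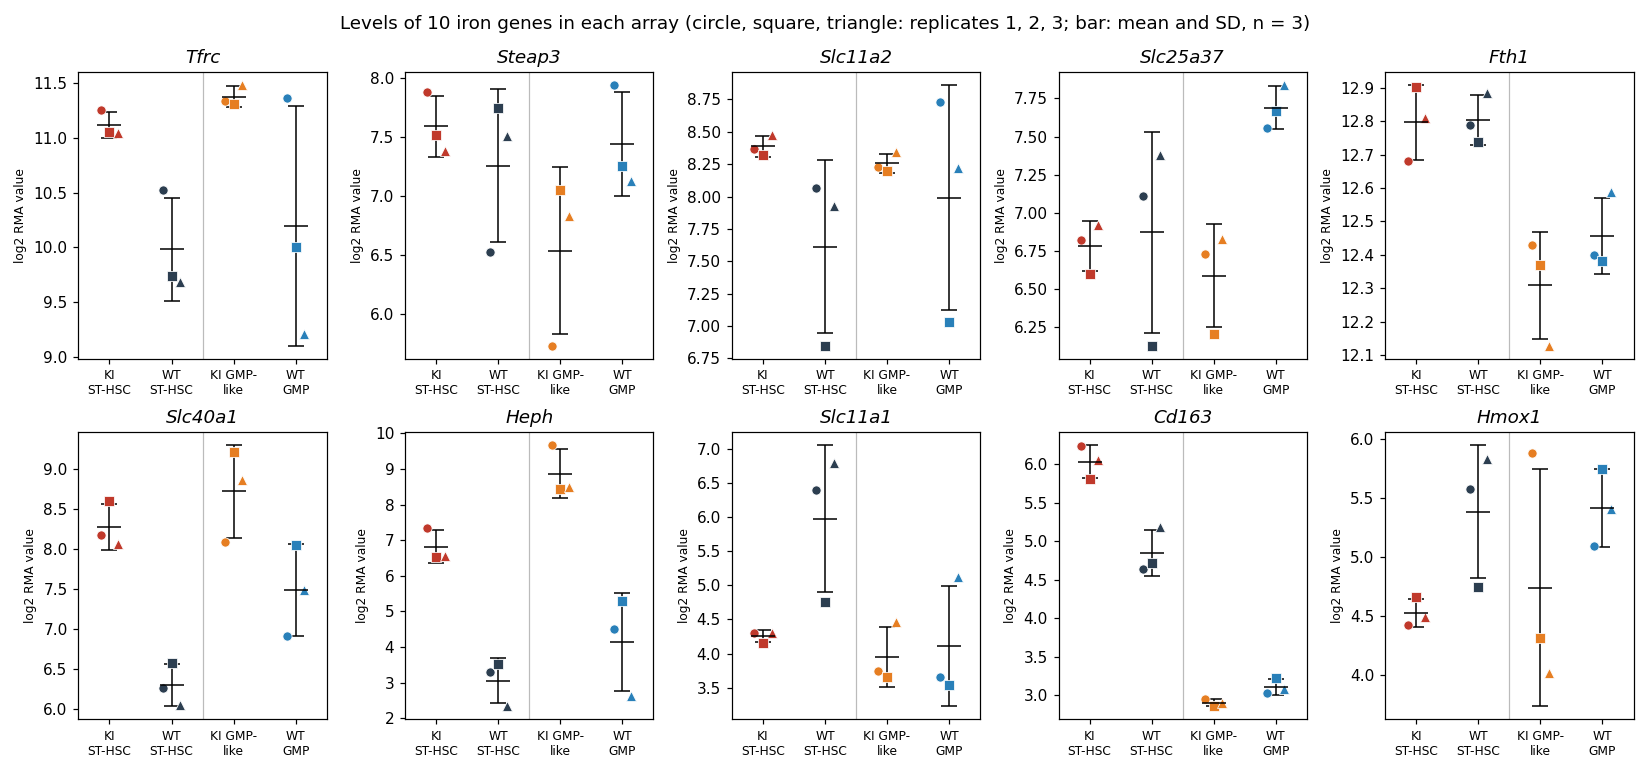
Log2 RMA value (vertical axis, a separate scale for each gene) of the lead probe set of the 10 genes in each of the 12 arrays, with the mean and SD of each group (n = 3). Heph lies between 2.34 and 5.30 in the WT arrays and between 6.54 and 9.67 in the KI arrays.

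Of the uptake genes, none passed in either population. Tfrc, the receptor for transferrin-bound iron, read 11.25, 11.06 and 11.04 in KI ST-HSC and 10.52, 9.74 and 9.68 in WT ST-HSC. In KI GMP-like cells it read 11.34, 11.31 and 11.48, against 11.37, 10.01 and 9.21 in WT GMP. The 6 KI arrays kept within a narrow range, whereas the WT arrays spread, and WT GMP replicate 1 reached the KI level. The differences were 1.14 in ST-HSC (95% interval 0.17 to 2.11, adjusted p = 0.285) and 1.18 in GMP (95% interval 0.21 to 2.15, adjusted p = 0.23). Tfrc has 5 further probe sets, of which 3 are control probe sets of the array that read the same mouse transcript and were not tested. In ST-HSC all 6 had the KI arrays above the WT arrays, with differences of 1.06 to 2.35, and in GMP all 6 overlapped, with differences of 0.86 to 1.25. Without WT GMP replicate 1 the GMP difference was 1.77 and passed (adjusted p = 0.0231). Against the single WT array of low Xist the differences were 1.38 in ST-HSC (adjusted p = 0.018) and 1.37 in GMP (adjusted p = 0.0361), with the spread taken from the other groups.

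Markers of erythroid cells, which carry much transferrin receptor, of mast cells and basophils, and of megakaryocytes are set beside these genes. Of the 7 measured erythroid genes 2 rose in KI ST-HSC, Rhag by 1.38 (adjusted p = 0.00296) and Ermap by 2.31 (adjusted p = 0.0388), and none in KI GMP-like cells. The mean log2 level of the list was 6.54 to 6.80 in KI ST-HSC and 4.57 to 5.74 in WT ST-HSC, while in GMP the KI arrays had 4.64 to 5.02 and the WT arrays 4.05 to 4.45. Hba-a1, which encodes alpha globin, read 3.18 to 3.98 over all arrays, below the median of each array. In GMP the higher mean came from Epor (2.23, adjusted p = 0.0694) and Klf1 (1.71, adjusted p = 0.357), and the median difference of the list was 0.09. Of 4 mast cell markers 2 rose in KI ST-HSC, Cpa3 by 2.69 (adjusted p = 0.00062) and Mcpt8 by 1.57 (adjusted p = 0.047). The remaining markers did not pass there. Ms4a2 went the other way with overlapping groups (−2.51, adjusted p = 0.196), and Fcer1a had 0.61 (adjusted p = 0.709). For GMP, Cpa3 was higher in KI by 1.57 (adjusted p = 0.0157) while Ms4a2 was lower by 5.21 (adjusted p = 0.0106). The mean level of the mast cell list was 6.79 to 7.45 in KI and 5.85 to 6.86 in WT ST-HSC, and 6.88 to 8.17 in KI-like and 7.86 to 8.30 in WT GMP. These ranges overlapped in both populations. Of 3 megakaryocyte markers 1 rose in ST-HSC of KI mice, Pf4 (3.49, adjusted p = 0.0483), and none passed in GMP. The mean level of the megakaryocyte list was 7.95 to 8.41 in KI and 6.03 to 7.17 in WT ST-HSC, and 5.85 to 6.10 in KI-like and 5.74 to 6.77 in WT GMP. The part of these cell types in the differences of Tfrc, Slc40a1 and Heph was not tested.

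Steap3, the endosomal reductase that turns ferric into ferrous iron for transport, read 7.88, 7.52 and 7.38 in KI ST-HSC and 6.53, 7.74 and 7.51 in WT ST-HSC. It read 5.73, 7.05 and 6.83 in KI GMP-like cells and 7.94, 7.25 and 7.13 in WT GMP. The groups overlapped in ST-HSC, and in GMP the KI arrays lay below the WT arrays by a small margin. Neither difference passed, at 0.33 (95% interval −0.55 to 1.21, adjusted p = 0.819) and −0.90 (95% interval −1.78 to −0.02, adjusted p = 0.335). Its other 2 probe sets gave differences of −0.20 and 0.25 in ST-HSC and of −0.05 and −0.01 in GMP, so they did not show the GMP difference of the lead.

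Slc11a2 encodes DMT1, which carries ferrous iron out of the endosome. The lead probe set read 8.36, 8.32 and 8.48 in KI ST-HSC, above 8.07, 6.85 and 7.92 in WT ST-HSC, and 8.23, 8.20 and 8.34 in KI GMP-like cells, within the range of 8.73, 7.03 and 8.22 in WT GMP. WT replicate 2 was the lowest array in both populations. The differences of 0.77 (95% interval −0.12 to 1.67, adjusted p = 0.476) and 0.26 (95% interval −0.63 to 1.16, adjusted p = 0.86) did not pass. The other 3 probe sets gave 0.02 to 0.99 in ST-HSC and 0.12 to 0.89 in GMP and did not pass either. With the Xist level as a covariate the lead passed with 1.66 (adjusted p = 0.00515) for ST-HSC and 1.14 (adjusted p = 0.0297) for GMP, and against the single WT array of low Xist it had 1.54 (adjusted p = 0.0105) and 1.22 (adjusted p = 0.0406), with the spread taken from the other groups. That array is replicate 2, the one in which Slc11a2 was lowest.

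**Figure D3:**
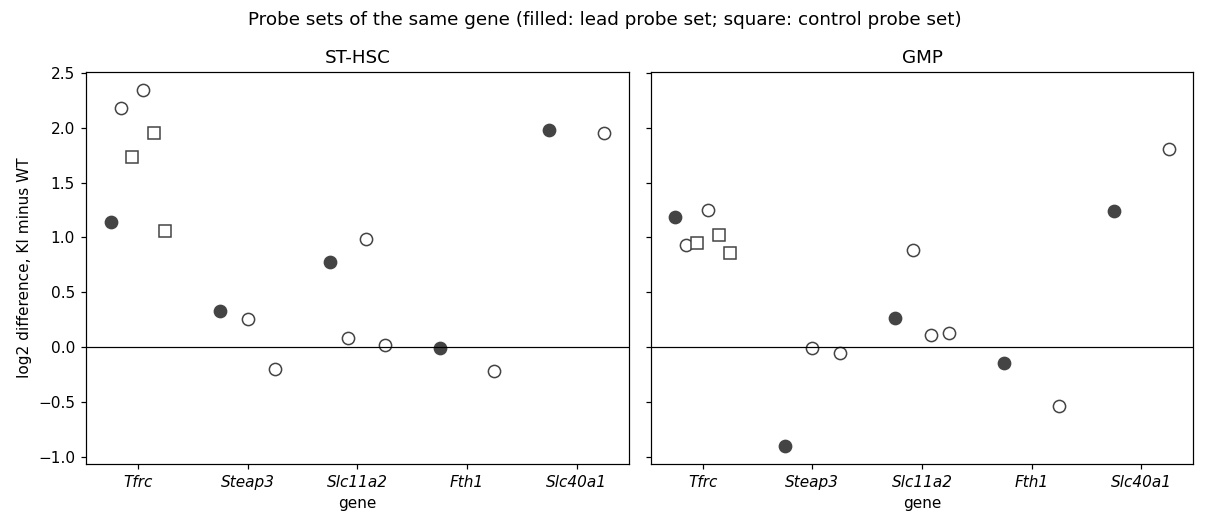
Log2 difference of KI minus WT (vertical axis) of each probe set of the 5 genes with more than 1 probe set, in ST-HSC (left) and GMP (right), filled for the lead probe set and square for control probe sets. All 6 probe sets of Tfrc and both of Slc40a1 lie above 0 in both panels, and those of Steap3 fall on both sides of 0 in ST-HSC.

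Fth1 encodes the heavy chain of ferritin, which oxidizes iron for storage, and had the narrowest intervals of the 10 lead probe sets. In ST-HSC it read 12.68, 12.90 and 12.81 in KI and 12.79, 12.74 and 12.88 in WT. In GMP it read 12.43, 12.37 and 12.13 in KI cells and 12.40, 12.38 and 12.59 in WT. The groups overlapped within each population. The interval of the difference was −0.29 to 0.28 in ST-HSC around −0.01 (adjusted p = 0.991) and −0.43 to 0.14 in GMP around −0.15 (adjusted p = 0.704). The second probe set, of the kind that can bind transcripts of related genes, gave −0.21 (adjusted p = 0.819) and −0.53 (adjusted p = 0.379). Ferritin is set mainly by translation through iron regulatory proteins, which an array of RNA does not read.

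Slc25a37 encodes mitoferrin 1, which brings iron into the mitochondria of erythroid cells. In ST-HSC it read 6.82, 6.60 and 6.92 in KI and 7.11, 6.13 and 7.38 in WT, with overlapping groups. In GMP it read 6.73, 6.20 and 6.83 in KI cells and 7.56, 7.67 and 7.84 in WT, so all KI arrays were below all WT arrays. The GMP difference of −1.10 (95% interval −1.74 to −0.46) did not pass (adjusted p = 0.0887). It passed with the replicate number as a block (adjusted p = 0.0468) and without WT ST-HSC replicate 2, which leaves the difference as it is and changes only the shared spread (adjusted p = 0.0176). In ST-HSC the difference was −0.09 (95% interval −0.73 to 0.55, adjusted p = 0.946). A further probe set carries the symbol of another gene beside Slc25a37 and was not used.

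Cd163 encodes the macrophage receptor for hemoglobin bound to haptoglobin. It read 6.23, 5.81 and 6.05 in KI ST-HSC and 4.63, 4.72 and 5.18 in WT ST-HSC, and rose by 1.19 (standard error 0.17, adjusted p = 0.00428). The groups did not overlap. In GMP it read 2.86 to 2.95 in KI cells and 3.03 to 3.23 in WT, below the lower quartile of every GMP array (3.31 to 3.41), with a difference of −0.20 (95% interval −0.57 to 0.17, adjusted p = 0.678). The call in ST-HSC held in all 12 fits that left out 1 array and with the Xist level as a covariate (adjusted p = 0.0281), and it was lost in the methods' t-test after Benjamini-Hochberg adjustment (adjusted p = 0.207) and in SAM.

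Of 12 measured marker genes of resident macrophages, none rose in KI cells, and 1 fell in each population, Csf1r. The mean log2 level of the list was 3.88 to 4.18 in KI ST-HSC and 4.95 to 5.36 in WT ST-HSC, the opposite direction to that of Cd163. In GMP it was 4.12 to 4.40 for KI arrays and 4.81 to 5.18 for WT arrays. Csf1r, a PU.1 target that the paper found lower in the mutant, weighs heavily in these means. Its differences were −7.10 in ST-HSC and −3.92 in GMP, while the median difference of the list was −0.78 and −0.27. Levels differed among the genes of the list. Timd4 and Mertk stayed at or below 4.61 and 4.10 on all arrays, under the array medians. Csf1r read 10.53 to 11.55 in the WT arrays, Cd68 4.95 to 8.16 over all arrays and Vcam1 5.63 to 6.96 in GMP. The part of macrophages in the difference of Cd163 was not tested.

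Slc11a1 encodes the phagosomal transporter NRAMP1, which removes metal ions from the phagosome. It read 4.30, 4.15 and 4.31 in KI ST-HSC and 6.39, 4.76 and 6.79 in WT ST-HSC, with WT replicate 2 close to the KI arrays. The groups did not overlap, and the difference of −1.73 (95% interval −2.90 to −0.56) did not pass (adjusted p = 0.156). Without WT ST-HSC replicate 2 it was −2.34 and passed (adjusted p = 0.0243). In GMP the values of 3.74, 3.66 and 4.46 in KI cells overlapped with 3.66, 3.54 and 5.12 in WT, at a difference of −0.16 (95% interval −1.32 to 1.01, adjusted p = 0.947).

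Hmox1 encodes heme oxygenase 1, which breaks down heme and frees its iron. It read 4.42, 4.66 and 4.49 in KI ST-HSC, below 5.57, 4.75 and 5.83 in WT ST-HSC, and 5.88, 4.32 and 4.02 in KI GMP-like cells against 5.09, 5.75 and 5.40 in WT GMP. KI GMP-like replicate 1 was the highest of all GMP arrays and the other KI GMP-like arrays were the lowest. The differences of −0.86 (95% interval −1.83 to 0.11, adjusted p = 0.461) and −0.68 (95% interval −1.65 to 0.29, adjusted p = 0.562) did not pass.

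The difference between the populations, KI minus WT in GMP less KI minus WT in ST-HSC, was called for none of the 10 genes by limma, and for 0.0495% of all genes. A looser cut, an unadjusted p under 0.05 in limma, was met by 2 of them, and the share of all genes at that cut is not given. They were Cd163, at −1.39 (95% interval −1.91 to −0.87, adjusted p = 0.0966), and Slc25a37, at −1.01 (95% interval −1.92 to −0.10, adjusted p = 0.575). For Slc40a1 it was −0.74 (95% interval −1.80 to 0.31, adjusted p = 0.771), an interval that holds both signs. For Heph it is not given, since it is made in part from the ST-HSC values known when the gene was chosen. Tfrc had 0.05 (95% interval −1.32 to 1.42, adjusted p = 0.994).

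A wider list of 50 iron genes that holds none of the 10 had 45 measured genes. In KI ST-HSC 2 rose and 1 fell, and in KI GMP-like cells 1 rose and 1 fell, beside 1.33% and 1.68% of all genes in ST-HSC and 1.19% and 1.4% in GMP. The median difference of the list was −0.04 in ST-HSC and −0.21 in GMP. None of the 7 measured genes of storage and its regulation, 6 of export and systemic control and 8 of mitochondrial iron passed in either population.

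The wider uptake genes held the largest changes of this list in ST-HSC, in opposite directions. Tfr2, a second transferrin receptor that senses iron in liver and erythroid cells, read 8.91 to 9.20 in KI ST-HSC and 6.34, 4.83 and 6.89 in WT ST-HSC. It rose by 3.02 (standard error 0.45, adjusted p = 0.00608), and its second probe set by 2.43 (adjusted p = 0.00571). In GMP both probe sets had KI arrays above WT arrays, at 1.31 (adjusted p = 0.195) and 1.34 (adjusted p = 0.0918), and did not pass. Hfe, an MHC class I-like protein that binds the transferrin receptor and acts on hepcidin, read 3.60, 3.82 and 3.74 in KI ST-HSC and 8.30, 6.63 and 8.56 in WT ST-HSC. It fell by 4.11 (adjusted p = 0.00173), while its dimmer probe set had −1.31 (adjusted p = 0.107). In GMP the KI arrays of Hfe again lay below the WT arrays, with −1.77 (adjusted p = 0.107). The difference between the populations did not pass for Tfr2 (−1.71, adjusted p = 0.519) or Hfe (2.34, adjusted p = 0.37).

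Blvrb, biliverdin reductase B, an enzyme of heme breakdown that is abundant in red cells, was the only gene of the wider list called in both populations. It read 9.24, 9.07 and 9.15 in KI ST-HSC against 7.33, 6.91 and 5.60 in WT ST-HSC, and 9.86, 8.63 and 9.69 in KI GMP-like cells against 5.03, 6.42 and 5.94 in WT GMP. No KI array came near a WT array. It rose by 2.54 in KI ST-HSC (adjusted p = 0.0219) and by 3.60 in KI GMP-like cells (adjusted p = 0.00426). In ST-HSC the call was lost without any 1 of the KI ST-HSC replicates (adjusted p of 0.0783 to 0.0858), without WT ST-HSC replicate 3 (0.0572), with the replicate block (0.0526), with the Xist level as a covariate (0.112) and without the WT arrays of high Xist (0.0574). Ltf, the iron-binding lactoferrin of neutrophil granules, read 4.48, 4.10 and 4.20 in KI GMP-like cells and 5.44, 5.52 and 6.11 in WT GMP, and fell by 1.43 (adjusted p = 0.0127). That call was lost when only the 6 GMP arrays were fitted (adjusted p = 0.0698) and without the WT arrays of high Xist (−1.26, adjusted p = 0.0607).

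**Figure D4:**
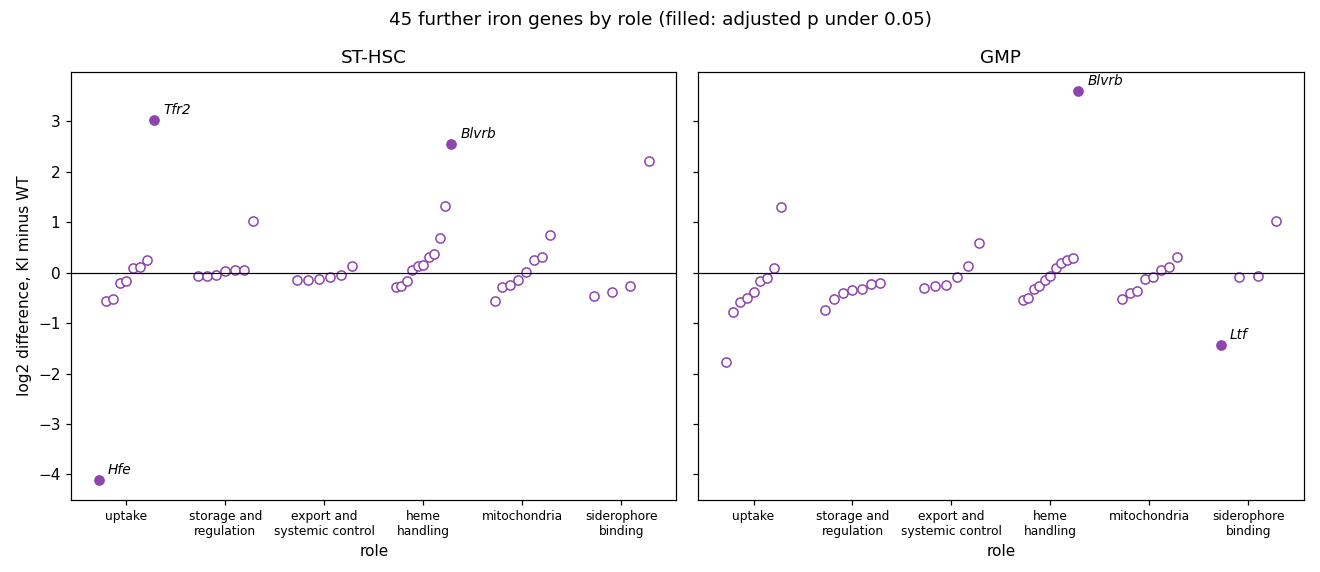
Log2 difference of KI minus WT (vertical axis) of 45 further iron genes by role in ST-HSC (left) and GMP (right), 1 point per gene, filled and named where the adjusted p was under 0.05. Tfr2 lies at 3.02 and Hfe at −4.11 in ST-HSC, and Blvrb at 3.60 and Ltf at −1.43 in GMP.

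The mean level of the hepatocyte markers was lower in KI cells of both populations, and Hfe and Tfr2, which hepatocytes also express, are read beside them. Of 6 measured hepatocyte genes 2 fell in both populations, Afp and Hnf4a, and none rose. The mean log2 level of the list was 5.92 to 5.99 in KI ST-HSC and 6.79 to 7.92 in WT ST-HSC, while in GMP the KI arrays had 4.96 to 5.57 and the WT arrays 5.82 to 7.33. Alb, albumin, read 5.51 to 5.83 in KI ST-HSC and 6.80 to 7.56 in WT ST-HSC, and did not pass (adjusted p = 0.282). In GMP the groups overlapped for Alb, at 4.20 to 6.22 in KI and 4.72 to 7.12 in WT cells. Ttr and Apoa2 overlapped in both populations, and Apoa2 had differences of −0.07 in ST-HSC and 0.10 in GMP. Hfe moved with this list and Tfr2 against it. Hnf4a read 5.89 to 6.99 in KI ST-HSC and 8.98 to 9.45 in WT ST-HSC. In GMP it read 3.68 to 3.96 in KI cells and 5.99 to 8.38 in WT. Both sort gates take c-kit+ lin- cells, and the part of hepatocyte RNA in Hfe or Tfr2 was not tested.

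The genes most like each called member over the 12 arrays were found by Pearson correlation of lead probe sets, as a description that holds the difference between the populations as well as that between KI and WT. For Heph they were Rnf128 (r = 0.967), Sytl2 (r = 0.961) and Gzmb (r = 0.960), for Slc40a1 Slpi (r = 0.946), Emid1 (r = 0.943) and Syde2 (r = 0.941), and for Cd163 Fhl1 (r = 0.987), Col18a1 (r = 0.979) and Cldn13 (r = 0.978).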

How the data were processed

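RNA of 12 sorted samples was amplified linearly (Ovation Pico), biotin-labeled and hybridized to 1 Affymetrix MG430 v2 array each. RMA (Bioconductor) was the normalization of the authors, and their deposited log2 values per probe set were used unchanged. No version of RMA is named in the sources used here. RMA aligns array distributions and compresses differences at low signal. Precision is limited by the small number of arrays. Of 45101 probe sets, 64 control probe sets were left out and 45037 tested without a low-value filter. The platform annotation gives 34945 of them 1 symbol, 932 several and 9160 none, and symbols were updated through RefSeq (GRCm38.p6). Groups came from the sample titles. KI minus WT within each population, and the difference of these, were fitted with limma 3.58.1 (lmFit, contrasts.fit, eBayes) in R 4.3.3 as 4 group means over 12 arrays (residual degrees of freedom 8, prior 2.52), with Benjamini-Hochberg adjustment over all tested probe sets. Limma took the place of the SAM algorithm of the study's methods because it gives standard errors, and SAM was an alternative. The fit was tested on simulated data.

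The members and lists were chosen with earlier results of these data known. Named genes are all members, called genes of the wider list, sort markers, Xist, and the 3 genes most like each called member, among genes with an SD of at least 0.5 over the arrays. The alternatives changed the arrays fitted, the normalization, low-value filters, probe sets, the spread model, the test, pairing and sex. Same-numbered KI and WT samples had correlations of their deviations from the group means of −0.04 to 0.05 over the 6 pairs. No pairing of the genotypes by number was seen, but with 3 arrays per group this check cannot exclude it.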

Additional observations from a re-analysis of the deposited data

Results flagged for a closer look

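Cd163 was set apart because its 3 KI arrays all lay above the WT arrays in ST-HSC (1.19) and all below them in GMP (−0.20). The difference between the populations was −1.39 (standard error 0.24) and did not pass in limma (adjusted p = 0.0966). When the probe sets of each gene were averaged and genes were fitted, which leaves Cd163 with the same values and tests fewer features, it passed (adjusted p = 0.0495). The GMP values of 2.86 to 3.23 lie below the lower quartile of each GMP array.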

How the results depend on the processing

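Of the 9 iron genes other than Heph, 2 were called in ST-HSC. Of all 10, 1 was called in GMP, Heph, and 0 for the difference between the populations. Of the wider list 3, 2 and 0 were called. Fitting only the 6 arrays of a population left 0 of the 10 and 1 of the wider list in GMP. Keeping probe sets at 6 or more on the log2 scale in 3 arrays, or only the brighter part of the probe sets by mean, left 1 of the 9 in ST-HSC and 1 of the wider list in GMP, since Cd163 and Ltf were filtered out. Averaging probe sets gave 1 called difference between the populations, Cd163. SAM, with a median of 0 false calls, called 0 of either list in both populations. Of all 45037 tested probe sets it called only 162 in ST-HSC and 43 in GMP. The methods' t-test after Benjamini-Hochberg adjustment also called 0 of either list in both populations. Unadjusted, that t-test called 6 of the wider list in ST-HSC, and in GMP 3 of the 10 and 9 of the wider list. The share of all genes called is not given for that cut or for the settings that follow. These counts are therefore not read as a result about the iron genes. With the replicate block, 3 of the 10 were called in GMP (Heph, Slc40a1 and Slc25a37), but no clear shared deviation of same-numbered KI and WT samples was seen. Same-numbered WT ST-HSC and WT GMP samples correlated at 0.160, 0.187 and 0.076, so whether the numbers pair the populations is not settled. With Xist as a covariate 2 of the 10 were called in GMP, and against WT arrays of low Xist alone 3 of the 10 and 1 of the wider list, where 1 WT array per population is assumed to vary like the other groups.

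Leaving out 1 array in turn gave 1 to 3 calls of the 9 in ST-HSC, 1 to 2 of the 10 in GMP and 0 to 0 between the populations, and 2 to 4, 2 to 4 and 0 to 0 of the wider list. The 1 call in ST-HSC came without KI ST-HSC replicate 2 or WT ST-HSC replicate 3, and the 4 calls of the wider list in GMP without WT ST-HSC replicate 2. No cause of these shifts was tested.

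Signs turned for differences that were not called. With Xist as a covariate, those in ST-HSC were 0.31 for Slc25a37 and 0.071 for Fth1, and that of Slc11a1 in GMP was 0.76. Without the WT arrays of high Xist, Steap3 had −0.15, Slc25a37 0.65 and Fth1 0.060 in ST-HSC, Slc11a1 had 0.41 in GMP, and the differences between the populations were −0.010 for Tfrc and −0.79 for Hmox1. Averaging probe sets gave −0.77 between the populations for Tfrc. Over the fits that left out 1 array, the ST-HSC difference was −0.034 to 0.58 for Steap3, −0.46 to 0.16 for Slc25a37 and −0.059 to 0.052 for Fth1. In GMP it was −0.22 to 0.63 for Slc11a2 and −0.44 to 0.35 for Slc11a1, and between the populations −0.45 to 0.64 for Tfrc and −0.39 to 0.54 for Hmox1.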
